A study of Mus musculus with 2 samples.

Results

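The genes described here are 10 markers of intestinal stem cells and targets of Wnt signalling, Lgr5, Olfm4, Ascl2, Smoc2, Axin2, Rnf43, Znrf3, Tnfrsf19, Sox9 and Msi1, taken by symbol from the 24357 named genes of the deposited expression tables. All 10 were listed in both libraries. The series has 1 group of 2 libraries, called replicate 1 and replicate 2 in accession order. Both came from wildtype C57BL/6 mice, with no modified allele named and no stated age or treatment. The sample titles carry the code D15, which the labels do not explain. Ileal epithelial cells were freed with EDTA and sorted as live cells bearing the epithelial surface protein EpCAM and lacking the leukocyte protein CD45. The sort took the whole epithelium and did not select stem cells, so each value is an average over absorptive, secretory and crypt cells. In such bulk samples, fewer cells of a type and less RNA per cell cannot be told apart.

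Stem cells at the base of the crypt renew the intestinal epithelium, and Wnt ligands from neighbouring Paneth cells and from the mesenchyme keep them in that state. Wnt binds Frizzled receptors and LRP co-receptors, which stops the destruction complex from degrading beta-catenin, and beta-catenin then acts with TCF/LEF factors on target genes. R-spondins, bound by LGR receptors, strengthen the signal by removing the ubiquitin ligases RNF43 and ZNRF3, which would otherwise take Frizzled from the cell surface. Rnf43, Znrf3 and Axin2 are targets and inhibitors of the pathway at once, a negative feedback.

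Of the 10 genes, RefSeq promoter sequences of the GRCm38.p6 build, the assembly also called mm10, were matched for 5, with 7 annotated starts: Ascl2, Axin2 and Olfm4 with 1 start each, and Rnf43 and Tnfrsf19 with more than 1. Lgr5, Smoc2, Znrf3, Sox9 and Msi1 were not matched. The 250 bases before each start were searched on both strands for CTTTGAT, a word bound by TCF/LEF factors, and for CAGCTG, an E-box of the kind bound by ASCL2 and related proteins. The 2 words do not overlap. CTTTGAT was found in 1 of the 7 windows and in 3.21% of the 32851 windows of all genes, and CAGCTG in 1 of the 7 and in 13.0% of all. Both matches lay in the same window, before the start of Tnfrsf19 that lies inside the longer transcript of that gene. The sequences of Axin2 and Ascl2, a target of Wnt signalling often used as its readout and a transcription factor of the stem cell programme, are shown beside it because they hold neither word. Each is printed 5′ to 3′ on the strand of its gene, with matches in capitals. The Axin2 window is chr11:108920099-108920348 on the plus strand, the Ascl2 window chr7:142969265-142969514 on the minus strand and the Tnfrsf19 window chr14:61037988-61038237 on the minus strand. The Tnfrsf19 window also overlaps an exon of the annotated gene Gm41168. The windows of Olfm4 and Rnf43, not printed here, likewise lie inside transcripts of their own genes. That of Olfm4 and 1 of those of Rnf43 overlap exons of the same gene.
Axin2: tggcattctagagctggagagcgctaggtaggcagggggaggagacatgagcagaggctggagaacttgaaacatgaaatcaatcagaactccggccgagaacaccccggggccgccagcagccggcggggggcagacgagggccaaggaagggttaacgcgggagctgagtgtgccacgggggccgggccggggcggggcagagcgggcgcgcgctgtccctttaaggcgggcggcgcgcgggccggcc
Ascl2: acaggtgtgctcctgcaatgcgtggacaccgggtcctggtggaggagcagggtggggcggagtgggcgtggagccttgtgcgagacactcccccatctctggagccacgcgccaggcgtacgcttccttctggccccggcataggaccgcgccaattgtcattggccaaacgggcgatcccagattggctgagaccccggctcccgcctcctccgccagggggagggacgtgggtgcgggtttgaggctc
Tnfrsf19: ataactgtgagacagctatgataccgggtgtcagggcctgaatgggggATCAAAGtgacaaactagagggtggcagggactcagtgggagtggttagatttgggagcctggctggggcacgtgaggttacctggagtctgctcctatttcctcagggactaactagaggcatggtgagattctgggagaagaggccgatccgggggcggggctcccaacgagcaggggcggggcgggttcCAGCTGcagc
In the Tnfrsf19 window the capitals ATCAAAG, the TCF/LEF word read on the other strand, begin 202 bases before the start, and CAGCTG begins 10 bases before it. These matches describe letters and not binding.

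Values are FPKM, fragment numbers scaled by transcript length and by library size, so levels of different genes can be set against each other. Where a gene is given 2 values, the first is that of replicate 1. The lowest values put the depth at roughly 16200000 fragments for the first library and 26200000 for the second. The labels do not state that the samples are from separate animals, but their sex-linked transcripts differed, with Xist from the inactive X at 7.91 and 0.00640 FPKM and Eif2s3y from the Y at 0 and 14.9 FPKM. All 10 epithelial markers passed 1 FPKM in both libraries, beside 42.3% of all named genes. So did 1 of 10 fibroblast genes, 0 of 8 T cell genes and 2 of 10 myeloid and B cell genes. These were Vim with 4.02 and 2.44 FPKM, Lyz2 with 5.87 and 7.08 FPKM and Itgam with 3.12 and 1.90 FPKM. With 1 group no contrast between conditions exists, and 2 values a gene allow no test: an exact two-sided permutation test of 2 values against 2 cannot go below p = 0.333. An SD, given after ±, is taken over both libraries (n = 2).

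Of the 10 genes 8 reached 1 FPKM in both libraries, as did 42.3% of all named genes. Olfm4 stood far above the rest, Smoc2 and Axin2 followed at 14 to 16 FPKM, Rnf43, Sox9, Lgr5, Ascl2 and Msi1 lay between 2 and 6 FPKM, and Tnfrsf19 and Znrf3 stayed near 1 FPKM. The median of the 10 genes was 4.28 and 4.74 FPKM, beside a median of 8.54 FPKM over the 10601 genes averaging 1 FPKM or more, called expressed genes below, and one of 0.322 FPKM over all named genes.

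**Figure D1:**
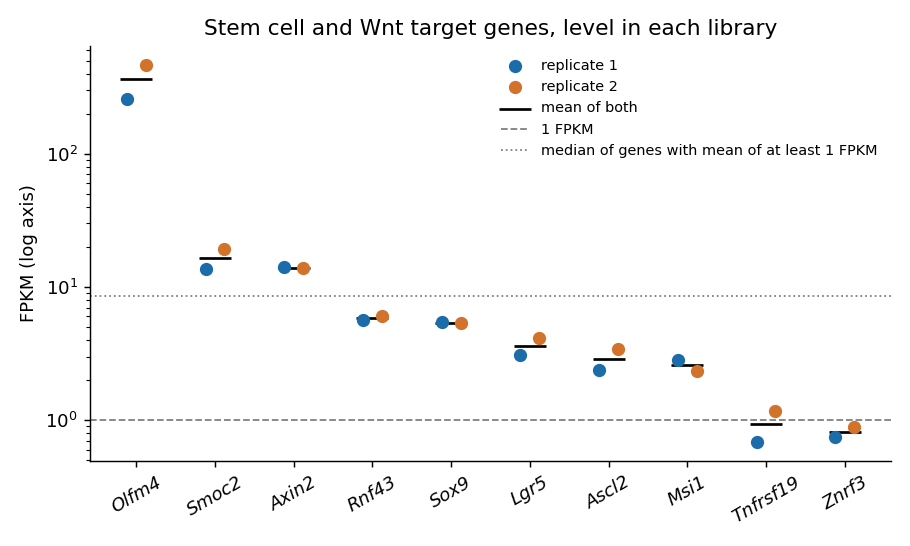
FPKM on a log axis for each of the 10 genes, ordered by mean, with 1 point per library and a bar at the mean. Olfm4 sits at 259 and 466 FPKM, and Tnfrsf19 and Znrf3 lie around the dashed line at 1 FPKM.

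Among the secreted products, Olfm4, a glycoprotein gene that marks crypt base stem cells, had 259 and 466 FPKM. Its mean of 362 ± 146 FPKM ranked 269 among all named genes, and Olfm4 alone held 84.2% of the summed FPKM of the 10 genes in replicate 1 and 89.2% in replicate 2. Its values did not overlap those of any other of the 10 genes. Smoc2, a matricellular protein of the same stem cells, had 13.6 and 19.3 FPKM (16.5 ± 4.02). It ranked second by mean, but Axin2 was above it in replicate 1. Olfm4 exceeded Lgr5 by a ratio of 83.5 in replicate 1 and 112 in replicate 2. The ratio of Smoc2 to Lgr5 was closer between the libraries, 4.40 and 4.66.

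Lgr5, the R-spondin receptor whose expression defines crypt base stem cells, had 3.10 and 4.15 FPKM (3.62 ± 0.738). It lay at percentiles 66.8 and 69.1 of all named genes. By the measure of likeness used here, the distance in log2(FPKM + 1) over the 2 libraries, Hnrnpr, Ulk3 and Commd8 were the genes nearest to Lgr5, at distances of 0.00332, 0.0111 and 0.0147. The genes nearest to Olfm4 were Leap2 at 264 and 490 FPKM, Acsl5 at 303 and 483 FPKM and Hsp90ab1 at 293 and 416 FPKM, at distances of 0.0769 to 0.239. Over 2 libraries such likeness is a likeness of level and says little else. Tnfrsf19, also called Troy, a TNF receptor family member that marks crypt base stem cells, had 0.688 and 1.17 FPKM (0.926 ± 0.338), below 1 FPKM in replicate 1 and above it in replicate 2.

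The negative feedback genes differed widely in level. Axin2, a scaffold of the destruction complex, had 14.1 and 13.8 FPKM (13.97 ± 0.249). Of its annotated exon bases 3.80% are shared with the antisense gene Gm11670, and since the strand setting is not given, reads from that stretch cannot be assigned. Rnf43 had 5.62 and 6.00 FPKM (5.81 ± 0.268) and its relative Znrf3 0.747 and 0.880 FPKM (0.813 ± 0.0942). The ratio of Rnf43 to Znrf3 was 7.52 in replicate 1 and 6.81 in replicate 2, so the same ligase led in both.

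The transcription factors and the RNA-binding protein stood in the middle of the range. Sox9, a factor of crypt base, Paneth and other secretory cells, had 5.46 and 5.33 FPKM (5.40 ± 0.0911). Ascl2, a basic helix-loop-helix factor that sustains the stem cell programme, had 2.38 and 3.42 FPKM (2.90 ± 0.735). The ratio of Ascl2 to Lgr5 was 0.766 and 0.824. Msi1, an RNA-binding protein of stem and progenitor cells, had 2.83 and 2.33 FPKM (2.58 ± 0.355). Msi1 exceeded Ascl2 in replicate 1 and was below it in replicate 2.

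Depth limits the lowest of these values. Taking the longest annotated transcript, Tnfrsf19 would rest on about 43 fragments in replicate 1 and 119 in replicate 2, Ascl2, whose transcript is short, on about 56 and 130, and Znrf3 on about 74 and 142. Lgr5 would rest on about 229 and 495 fragments and Olfm4 on about 11087 and 32278. Counting error alone would then be 15.2% and 9.17% of the value for Tnfrsf19, 13.4% and 8.79% for Ascl2, 6.61% and 4.49% for Lgr5, and under 1% for Olfm4. These figures cover counting error only and are approximate, since the depth itself was estimated.

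By mean log2(FPKM + 1), 3 of the 9 steps between neighbours were larger than the spread between libraries. A step counted as larger if the order held in each library, the values did not overlap and the step passed a limit: of the 200 genes closest in level, 95% differed by less than this limit from library to library. Olfm4 exceeded Smoc2 by 4.34 against a limit of 0.59, Axin2 exceeded Rnf43 by 1.14 against 0.67, and Msi1 exceeded Tnfrsf19 by 0.90 against 0.72. Smoc2 was not separated from Axin2, where the order changed between libraries, nor Rnf43 from Sox9, with a difference of 0.09 against a limit of 0.66. Sox9 and Lgr5 kept their order, but the difference of 0.48 was under the limit of 0.56. Lgr5 and Ascl2 overlapped, and so did Ascl2 and Msi1 and Tnfrsf19 and Znrf3. Over all 45 pairs of the 10 genes, 38 were separated.

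In the mm10 assembly, with coordinates from GENCODE release M21, Axin2 lies on the plus strand of chromosome 11 from 108920349 to 108950783, Sox9 on the same strand from 112782224 to 112787760, Rnf43 on the same strand from 87662722 to 87735539 and Znrf3 on the minus strand of that chromosome from 5276324 to 5444847. Lgr5 lies on the minus strand of chromosome 10 from 115450311 to 115587780. Olfm4 lies on the plus strand of chromosome 14 from 79984081 to 80023139. Tnfrsf19 lies on the minus strand of chromosome 14 from 60963875 to 61046490. Ascl2 lies on the minus strand of chromosome 7 from 142966829 to 142969264. Smoc2 lies on the plus strand of chromosome 17 from 14279506 to 14404790 and Msi1 on the plus strand of chromosome 5 from 115429599 to 115455698. All are annotated as protein-coding. Of the exon bases of Olfm4, 5.17% are shared with the noncoding gene Gm6999 on the same strand, and besides Olfm4 and Axin2 none of the 10 shares exon bases with another annotated gene.

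Upstream of these genes, most Wnt ligands were low in the bulk average of the sorted epithelium. Of 19 ligands 1 reached 1 FPKM in both libraries, beside 42.3% of all named genes: Wnt3, the ligand made by Paneth cells, with 1.70 and 2.94 FPKM. Wnt4 had 0.675 and 1.04 FPKM and Wnt6 0.842 and 0.419 FPKM, and 7 ligands were listed at 0 in both. Zeros were common: of the 24357 named genes, 8717 were listed at 0 in replicate 1 and 8336 in replicate 2. Wnt2b, a ligand known from the mesenchyme, had 0.109 and 0.0334 FPKM. Among the fibroblast markers, Pdgfra and Foxl1 were listed at 0 in both libraries, while Vim had 4.02 and 2.44 FPKM. Wls, which carries Wnt proteins to the cell surface, had 8.21 and 9.86 FPKM, while Porcn, the acyltransferase that modifies them, had 0.668 and 0.355 FPKM. Rspo2 and Rspo3 were listed at 0 in both libraries, Rspo1 had 0.0369 and 0 FPKM and Rspo4 0.0559 and 0.0516 FPKM.

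On the receiving side, 6 of 15 receptors and co-receptors reached 1 FPKM in both libraries, a share close to the 42.3% of all named genes. They were led by Ryk with 11.6 and 16.3 FPKM, Lrp5 with 15.7 and 11.9 FPKM and Fzd5 with 13.6 and 13.4 FPKM. Fzd7, the Frizzled receptor tied to crypt base stem cells, had 2.94 and 4.90 FPKM, Lrp6 had 5.30 and 5.13 FPKM and Fzd4 1.25 and 1.53 FPKM. Fzd5 exceeded Fzd7 by a ratio of 4.65 in replicate 1 and 2.74 in replicate 2. All 13 genes of the destruction complex list reached the minimum, led by Ctnnb1, the gene of beta-catenin, with 151 and 164 FPKM, Csnk1a1, a kinase of the complex, with 47.9 and 65.3 FPKM and Gsk3a, another, with 48.9 and 46.6 FPKM. Apc, the tumour suppressor scaffold, had 3.28 and 3.74 FPKM.

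Of 12 TCF/LEF factors and cofactors 7 reached 1 FPKM in both libraries (58.3%), beside 42.3% of all named genes. Tcf7l2, the main TCF of the intestinal epithelium, had 8.34 and 6.70 FPKM, while Tcf7 had 0.892 and 1.76 FPKM and Lef1 0.0576 and 0.0532 FPKM. The co-repressor genes Tle3, with 12.9 and 11.3 FPKM, and Tle1, with 9.72 and 9.22 FPKM, led this list, followed by Pygo2, a co-activator that binds the beta-catenin complex, with 9.25 and 8.57 FPKM. Of 14 other Wnt target genes 7 reached 1 FPKM in both libraries, a share not far from the 42.3% of all named genes. Among them were the cyclin gene Ccnd1 at 19.4 and 20.5 FPKM, Zfp703 at 22.7 and 15.8 FPKM and Myc at 5.39 and 7.63 FPKM. Ephb2 and Ephb3, receptors that place cells along the crypt, had 4.04 and 3.94 FPKM and 3.08 and 3.36 FPKM. Sp5, a transcription factor gene that responds to Wnt, had 4.59 and 5.56 FPKM, and Cd44, a surface protein of crypt cells, 2.66 and 4.10 FPKM. Secreted inhibitors were low except Sfrp5, a decoy that binds Wnt, the only 1 of 11 to reach the minimum, with 1.63 and 6.33 FPKM and a difference of 1.48 in log2(FPKM + 1).

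**Figure D2:**
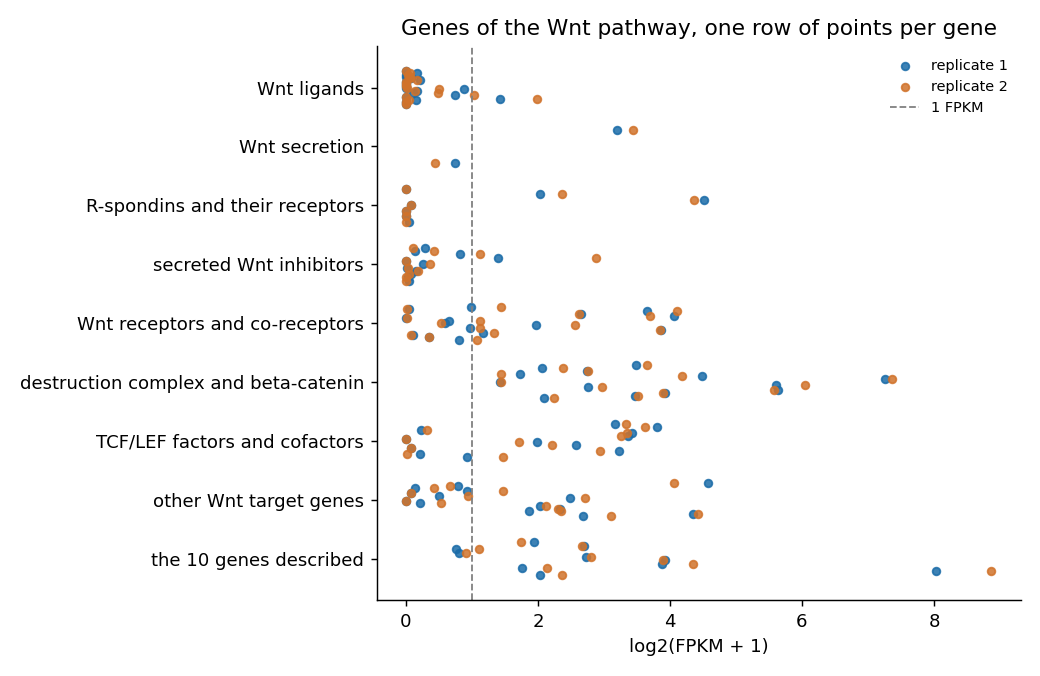
log2(FPKM + 1) of the genes of each Wnt pathway list and of the 10 genes described, with 1 point per gene and library and a dashed line at 1 FPKM. Of the 19 ligands 1 lies right of the line in both libraries, and all 13 genes of the destruction complex and beta-catenin list do.

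The 10 genes stood in different relations to their relatives. Lgr4, the R-spondin receptor found throughout the epithelium, had 21.9 and 19.6 FPKM, above Lgr5 by a ratio of 7.07 in replicate 1 and 4.74 in replicate 2, and Lgr6 was listed at 0 in both. Axin2 exceeded Axin1, the constitutive scaffold with 10.1 and 10.4 FPKM, by a ratio of 1.40 and 1.32. Msi2 had 2.80 and 3.11 FPKM, so that the ratio of Msi1 to Msi2 was 1.01 in replicate 1 and 0.749 in replicate 2 and the order turned between libraries. Sox4, another factor of crypt cells, had 4.57 and 6.57 FPKM, and its order with Sox9 turned as well. Ascl2, Smoc2 and Olfm4 stood above the relatives given here in both libraries. Ascl3, Ascl4 and Ascl5 had at most 0.333 FPKM in either library, Smoc1 had 0.188 and 0.115 FPKM, and Olfm1 2.39 and 0.931 FPKM. Eda2r and Edar, receptors set beside Tnfrsf19, had at most 0.00827 FPKM.

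**Figure D3:**
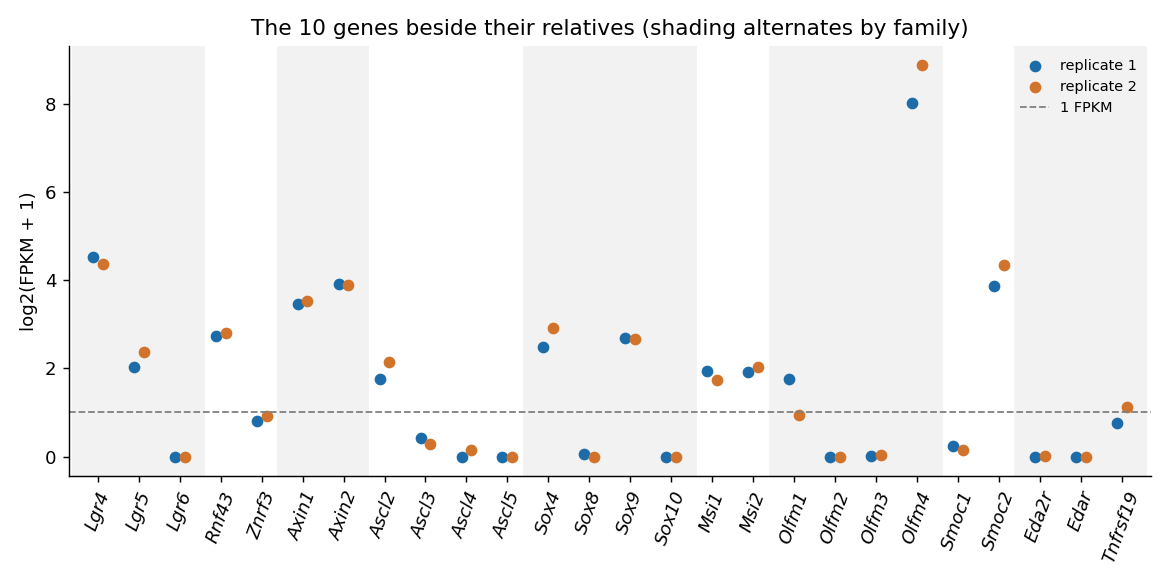
log2(FPKM + 1) of the 10 genes and of relatives, grouped by family with alternating shading, 1 point per library. Olfm4, Smoc2 and Ascl2 stand above the relatives shown, Lgr5 lies below Lgr4, and Msi1 and Msi2 lie at like levels.

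Other genes used to mark crypt base stem cells were expressed too. Of 12 such genes 10 reached 1 FPKM in both libraries, beside 42.3% of all named genes, with a median of 6.05 FPKM. Clca3b had 86.7 and 102 FPKM, Slc12a2, a sodium, potassium and chloride cotransporter, 22.8 and 31.1 FPKM, and Cdca7, a gene of cycling cells, 18.1 and 29.0 FPKM. Of 6 genes linked to reserve stem cells 3 reached 1 FPKM in both, a share not far from that of all named genes. They were Hopx with 43.9 and 57.2 FPKM, Lrig1, an inhibitor of ERBB receptors, with 8.53 and 10.7 FPKM, and Bmi1, a Polycomb protein, with 3.32 and 3.89 FPKM. Hopx exceeded Lgr5 in both libraries, and the sort does not confine any of these transcripts to stem cells.

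Between the libraries, the differences of the 10 genes as deposited did not share 1 direction. Olfm4 was higher in replicate 2 by 0.84 on the log2(FPKM + 1) scale, outside the central 95% of the expressed genes, which ran from -0.66 to 0.64 around a median of 0.11. None of the other 9 members lay outside it. Smoc2 differed by 0.47, Ascl2 by 0.39, Tnfrsf19 by 0.36 and Lgr5 by 0.33, all higher in replicate 2. The added pseudocount hides part of the change of the lowest gene: as plain ratios of FPKM, replicate 2 over replicate 1, Olfm4 had 1.80, Tnfrsf19 1.69, Ascl2 1.44, Smoc2 1.42 and Lgr5 1.34. Znrf3 at 0.11, Rnf43 at 0.08, Sox9 at -0.03, Axin2 at -0.03 and Msi1 at -0.20 on the log2(FPKM + 1) scale lay at or below the overall median. The 5 crypt base markers had the highest differences and the feedback genes, Sox9 and Msi1 the 5 lowest, a division made after the values were seen. Of the 8 members averaging 1 FPKM or more 5 were higher in replicate 2, against 64.0% of all expressed genes. Of all 10 members 7 were, against 40.6% of all named genes, many of which are listed at 0. No member passed a log2 difference of 1, as 1.53% of genes did.

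The difference between libraries went with GC content over all genes (Spearman's rho = -0.510 across 10223 genes, which share the same 2 libraries), genes of low GC content being higher in replicate 2. The transcript of Olfm4 has 42.1% GC, the lowest of the 10, and that of Ascl2 59.6%, the highest. Once a trend fitted on GC content and transcript length was taken out, the difference of Olfm4 was 0.67, that of Ascl2 was also 0.67 and that of Smoc2 was 0.45, and the central 95% of genes ended at 0.61. Ascl2 then lay outside it, on a value that rests on few fragments. Rnf43 then differed by 0.38 and Lgr5 by 0.24, so that the feedback genes and the crypt base markers no longer fell into separate ranges. Axin2 turned to 0.17 and Msi1 to 0.04, and 7 of the 8 genes were higher in replicate 2, against 69.1% of all genes treated in the same way. Tnfrsf19 and Znrf3, with means under 1 FPKM, were not part of this step.

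Markers of other crypt cells differed as well. Of 11 other crypt base stem cell genes averaging 1 FPKM or more 11 were higher in replicate 2, with a median difference of 0.43, and of 18 proliferation genes 18 were, with a median of 0.49. These shares stand beside the 64.0% of all expressed genes that were higher. With the GC content and length trend removed, the medians were 0.34 and 0.39, and Prom1 of the crypt base list turned to -0.06. For Paneth cells 8 of 10 genes were higher, a count not far from the 64.0% of all expressed genes, with sums of 19370 and 33033 FPKM. Their median difference, however, was 0.68, and 0.62 with the trend removed. For goblet cells 9 of 10 genes were lower, with sums of 40368 and 19268 FPKM and a median difference of -0.90. Lower too were 7 of 8 tuft cell genes, with a median of -0.56, and 9 of 10 enteroendocrine genes, with -0.39. With the trend removed the medians of these lists were -0.88, -0.59 and -0.38. The summed level of absorptive enterocyte genes was 38416 and 38130 FPKM, with 6 of 10 higher and a median difference of 0.02. The near-equal sums hide large genes that moved opposite ways. Apoa1 had 19313 and 14625 FPKM and Apoa4 6393 and 10075 FPKM. The part of crypt content and of the sex of the animals in the difference of Olfm4 was not tested, and with 1 library on each side they cannot be told apart. Relative to Epcam, the sorted surface protein, Olfm4 had a ratio of 0.372 in replicate 1 and 0.724 in replicate 2. Epcam itself was lower in replicate 2, with 696 and 644 FPKM, which widens the gap between these ratios. Of the 10 epithelial markers 0 were higher in replicate 2, with a median difference of -0.19. With the trend removed their median was -0.08, and Cdx2 alone of that list turned higher, to 0.18.

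**Figure D4:**
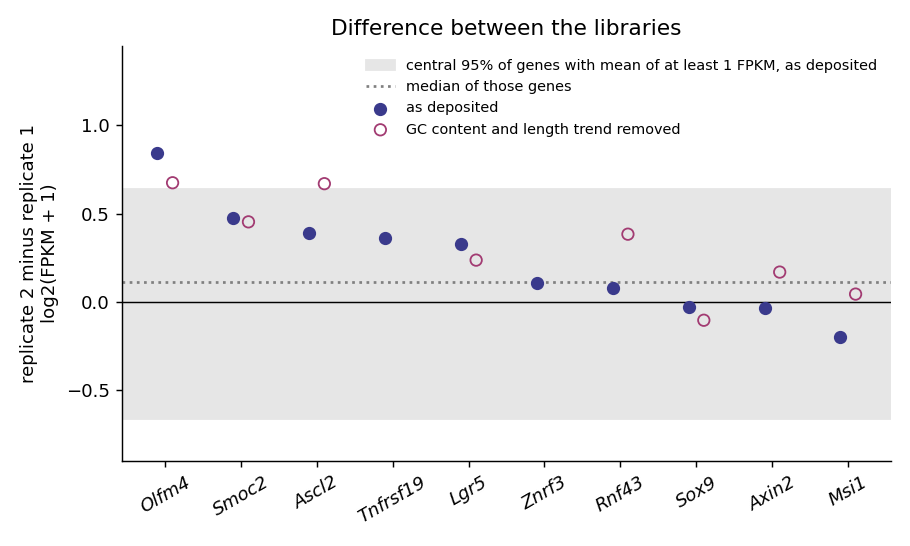
Replicate 2 minus replicate 1 in log2(FPKM + 1) for each of the 10 genes as deposited (filled points) and with the GC content and length trend removed (open points, 8 genes), with the central 95% of expressed genes as a grey band. Olfm4 at 0.84 lies above the band as deposited, and Olfm4 and Ascl2, both at 0.67, lie above it with the trend removed.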

How the data were processed

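Messenger RNA of sorted ileal epithelium was sequenced in 2 libraries of 1 group. The submitters' processing notes name the tools TopHat2 2.0.14 and Cufflinks 2.2.1 and the assembly mm10. How strand and multiply matching reads were handled, and with which annotation, is not given here by labels or headers. The authors deposited FPKM, 1 per gene symbol and library, to which no count model was applied. Of 24384 rows, 27 carried a date in place of a symbol and were left out.

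Differences were taken as log2(FPKM + 1), which understates those of low genes. Depth was read from the commonest low value of FPKM times transcript length less 160 bases among genes with 1 annotated transcript. Depths are approximate, since 72.4% (replicate 1) and 71.2% (replicate 2) of such low values came within 0.1 of whole fragments. Length and GC content, from the longest GENCODE M21 transcript, were found for 96.4% of the 10601 genes averaging 1 FPKM or more. For the trend, the median difference was subtracted within 10 bins of GC content by 5 of length, and the overall median was added back. Alternatives changed the pseudocount, minimum, scaling and libraries used.

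The members and lists were chosen with earlier results of these data known. The genes that could be named were the 10 members, their relatives apart from those not reported here, the 3 highest of each list, Wnt pathway genes at 1 FPKM or more in both libraries and the 3 genes nearest to Lgr5 and Olfm4, and not all of these are printed. Others, such as Wnt2b, Wnt4, Wnt6, Porcn, Pdgfra, Foxl1, the R-spondins, Tcf7, Lef1, Prom1, Cdx2, Clu, Xist and Eif2s3y, were named after their values were seen. Python 3.11.15, numpy 2.4.6, pandas 2.3.3 and matplotlib 3.10.9 were used.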

Additional observations from a re-analysis of the deposited data

How the results depend on the processing

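The median level of the 10 genes, 4.51 FPKM, was 4.74 FPKM without replicate 1, 4.28 FPKM without replicate 2 and 7.37 FPKM with both libraries rescaled to the same sum. Of the 10 genes 8 passed 1 FPKM in both libraries, 9 without replicate 1, 8 without replicate 2, and 5 passed a minimum of 5 FPKM. All 10 passed a value of 1 after that rescaling, where the minimum was not raised with the values. The number of members higher in replicate 2 was 5 of the 8 averaging 1 FPKM or more, 3 of 5 with a minimum of 5 FPKM, 4 of 8 with replicate 2 scaled by the median ratio, 7 of 10 with no minimum or after rescaling to the same sum, and 7 of 8 with the GC content and length trend removed. The median difference over the members, 0.20, ranged from 0.08 to 0.31 over the alternatives. The difference of Tnfrsf19, 0.36, was 0.75 with a pseudocount of 0.01, and that of Rnf43, 0.08, was -0.03 with replicate 2 scaled by the median ratio. There were 3 separated steps under both smaller pseudocounts and both scalings as well; with 1 library left out the limit cannot be had, so that alternative was not run. No paired analysis was possible because there is only 1 group. Depth limits Tnfrsf19, Znrf3 and Ascl2 most.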

Other observations

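BMP signalling, which counters Wnt and restricts the stem cell state along the crypt and villus axis, was looked at through a list of 22 genes written after the tables had been examined but not picked by value. Of these, 14 reached 1 FPKM in both libraries (63.6%), beside 42.3% of all named genes. The target genes Id1, with 157 and 113 FPKM in replicates 1 and 2, and Id3, with 152 and 113 FPKM, were the highest, followed by Id2 with 23.9 and 33.0 FPKM. The receptor gene Bmpr1a had 8.75 and 13.0 FPKM, the shared mediator Smad4 19.6 and 23.2 FPKM and Smad5, a mediator of BMP signals, 2.89 and 3.78 FPKM. The ligand Bmp2 had 4.06 and 4.73 FPKM, while Bmp4 had 0.0337 and 0 FPKM. The antagonist genes Nog and Grem1 were listed at 0 in both libraries.

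A list of 11 genes of the fetal-like and repair state of the epithelium was written at the same time. Of these, 5 had 1 FPKM or more in both libraries, a share close to the 42.3% of all named genes. S100a6 had 427 and 268 FPKM and Ly6a, the gene of the surface protein Sca-1, 12.4 and 2.81 FPKM, while Il33, an alarmin, went the other way with 6.97 and 13.7 FPKM. Clu, a marker of revival stem cells, had 0.562 and 0.717 FPKM.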
